A study of Mus musculus with 12 samples.

Results

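The expression of 9 heterochromatin genes was followed in RAW264.7 cells, a mouse macrophage line. They encode the 3 HP1 proteins (Cbx5, Cbx1 and Cbx3), the corepressor Trim28 and the H3K9 methyltransferases Setdb1, Suv39h1, Suv39h2, Ehmt1 and Ehmt2. Cbx5 was picked because of its own measured values in these libraries, where it was higher with all 3 miRNA-loaded vesicles than with control vesicles. The other 8 were picked by function, to ask whether Cbx5 moved alone or with its paralogues and partners. All 9 were among the 13906 genes that had enough counts to be tested, of 35865 genes with a listed transcript.

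Each culture received vesicles (EVs) from MS-1 endothelial cells for 48 h, at 3 µg of EV protein per ml of medium. The EVs had been electroporated with a mimic of miR-222-3p, miR-183-5p or miR-142-5p, or with premiR control, named in the study's methods as the worm miRNA cel-miR-67. The groups, named miR-222-3p-EVs, miR-183-5p-EVs, miR-142-5p-EVs and ctrl-EVs, hold 3 polyA RNA libraries each, numbered 1 to 3. All cells thus received electroporated vesicles, and no culture without EVs was analysed here. RAW264.7 and MS-1 are each 1 established line, so the libraries show how these lines behave and not how animals vary. The study's methods state in general that experiments were repeated, but the sources used here do not say for these libraries whether the 3 of a group come from separate cultures, and p-values then measure only the spread between these libraries.

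HP1 proteins read histone H3 methylated at lysine 9. Their chromodomain binds the methyl mark and their chromoshadow domain binds partner proteins, including the methyltransferases that write the mark, so that silent chromatin can spread and be inherited. Suv39h1 and Suv39h2 methylate pericentric repeats, Setdb1 is brought to retroelements by Trim28 and zinc finger proteins, and Ehmt1 and Ehmt2 (GLP and G9a) act as a pair that mono- and dimethylates H3K9 in euchromatin.

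The mature forms of the 3 miRNAs are shown because each could pair with a member through its seed, bases 2 to 8, in capitals. They are the RefSeq letters. The study's supplement lists mimic strands with the same letters for miR-142-5p and miR-183-5p. Its miR-222-3p strand lacks only the final letters cu. The sequences and GRCm38.p6 positions are from RefSeq, and the genes lie at chr11:87756867-87756887 on the plus strand, chr6:30169711-30169732 on the minus strand and chrX:19146901-19146923 on the minus strand.
miR-142-5p: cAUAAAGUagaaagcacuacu
miR-183-5p: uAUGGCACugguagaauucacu
miR-222-3p: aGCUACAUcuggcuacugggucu
The 3 seeds differ, so no site is shared. The matching DNA letters (ACTTTAT for miR-142-5p; GTGCCAT for miR-183-5p; ATGTAGC for miR-222-3p) were sought on the sense strand of the 3′ UTR of each member's most abundant transcript. Cbx5 and Cbx3 held a match. The Cbx5 transcript Cbx5-202 has a 3′ UTR of 8097 bases, longer than that of 99.3% of 11387 genes, whose median is 925 bases. It held 3 miR-183-5p matches, at chr15:103198668-103198690, chr15:103196571-103196593 and chr15:103195550-103195572, and 1 miR-222-3p match at chr15:103193359-103193381, all on the minus strand of GRCm38. Cbx3-201 held 1 miR-142-5p match at chr6:51483638-51483660 on the plus strand. Each is printed 5′ to 3′ with the letters that match the seed in capitals.
Cbx5, miR-183-5p, nearest the stop codon: ccattcccttccGTGCCATtatt
Cbx5, miR-183-5p, next: ctcttaactgctGTGCCATctct
Cbx5, miR-183-5p, last: tgcaataggaggGTGCCATtaac
Cbx5, miR-222-3p: gacagggtttctATGTAGCcatg
Cbx3, miR-142-5p: aactgtatatttACTTTATtgta
Over all 11387 genes, 13.9% held a miR-142-5p match, 9.09% a miR-183-5p match and 9.27% a miR-222-3p match. The 3′ UTRs of the other 7 members held none of the 3 words in these transcripts. For Cbx1 the searched transcript was Cbx1-204, annotated as a target of nonsense-mediated decay, and no search of its coding transcripts is given. A match describes the sequence and shows no binding.

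All 9 genes were expressed in every library, at different levels. TPM values, which scale counts by transcript length and library, allow genes to be compared. The mean TPM over the 12 libraries was 199 for Trim28, 135 for Cbx3, 84.2 for Ehmt2, 69.3 for Cbx1, 44.0 for Setdb1, 33.7 for Cbx5, 29.8 for Ehmt1, 23.9 for Suv39h1 and 10.0 for Suv39h2. This order held in all 12 libraries for 6 of the 8 neighbouring pairs. Ehmt2 was above Cbx1 in 11 of 12, and Cbx5 above Ehmt1 in 9 of 12, so those neighbours were not separated in every library. By gene sums of TPM, Cbx5 was thus the lowest of the 3 HP1 genes and Cbx3 the highest. Of the Cbx1 sum, 68.9% was Cbx1-204, annotated as a target of nonsense-mediated decay. The coding Cbx1 transcripts had means of 16.6, 3.26 and 0.423 TPM, each below Cbx5-202 at 32.2. The order of Cbx5 and Cbx1 is thus one of gene sums and not of coding transcripts.

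Cbx5, which encodes HP1α (chr15:103191544-103239816, minus strand), had normalized counts of 3972, 3600 and 3028 with ctrl-EVs, in the order of replicates 1 to 3. Normalized counts are estimated counts divided by library size and transcript length factors, and they compare a gene between libraries only. Cbx5 had 4816, 4567 and 4095 in the miR-222-3p-EVs libraries, 4043, 4477 and 4060 in those of miR-183-5p-EVs, and 4448, 4165 and 4376 in those of miR-142-5p-EVs. Every miR-EV library lay above every ctrl-EV library, with means of 4339 ± 266 (SD, n = 9) and 3533 ± 475 (SD, n = 3). The closest pair was miR-183-5p-EVs replicate 1 at 4043 and ctrl-EVs replicate 1 at 3972. Such a separation occurred in 0.173% of all genes tested, and it is what chose Cbx5, so it is a description. With the replicate number as a block Cbx5 was among the genes that DESeq2 called in the pooled comparison, and without it not, which is no test of a gene chosen on this contrast. The log2 fold change was 0.30 ± 0.10 (SE) for the 9 libraries pooled, 0.35 for miR-222-3p-EVs, 0.25 after miR-183-5p-EVs and 0.29 after miR-142-5p-EVs. These comparisons share their ctrl-EV libraries. All 3 libraries of a group lay above all 3 of ctrl-EVs for 1.49%, 1.74% and 1.48% of all genes in the same order. The pooled value was 0.20 ± 0.09 (SE) without ctrl-EVs replicate 3 and 0.39 ± 0.10 without ctrl-EVs replicate 1. In bulk RNA, fewer cells of a type and less RNA per cell cannot be told apart.

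**Figure D1:**
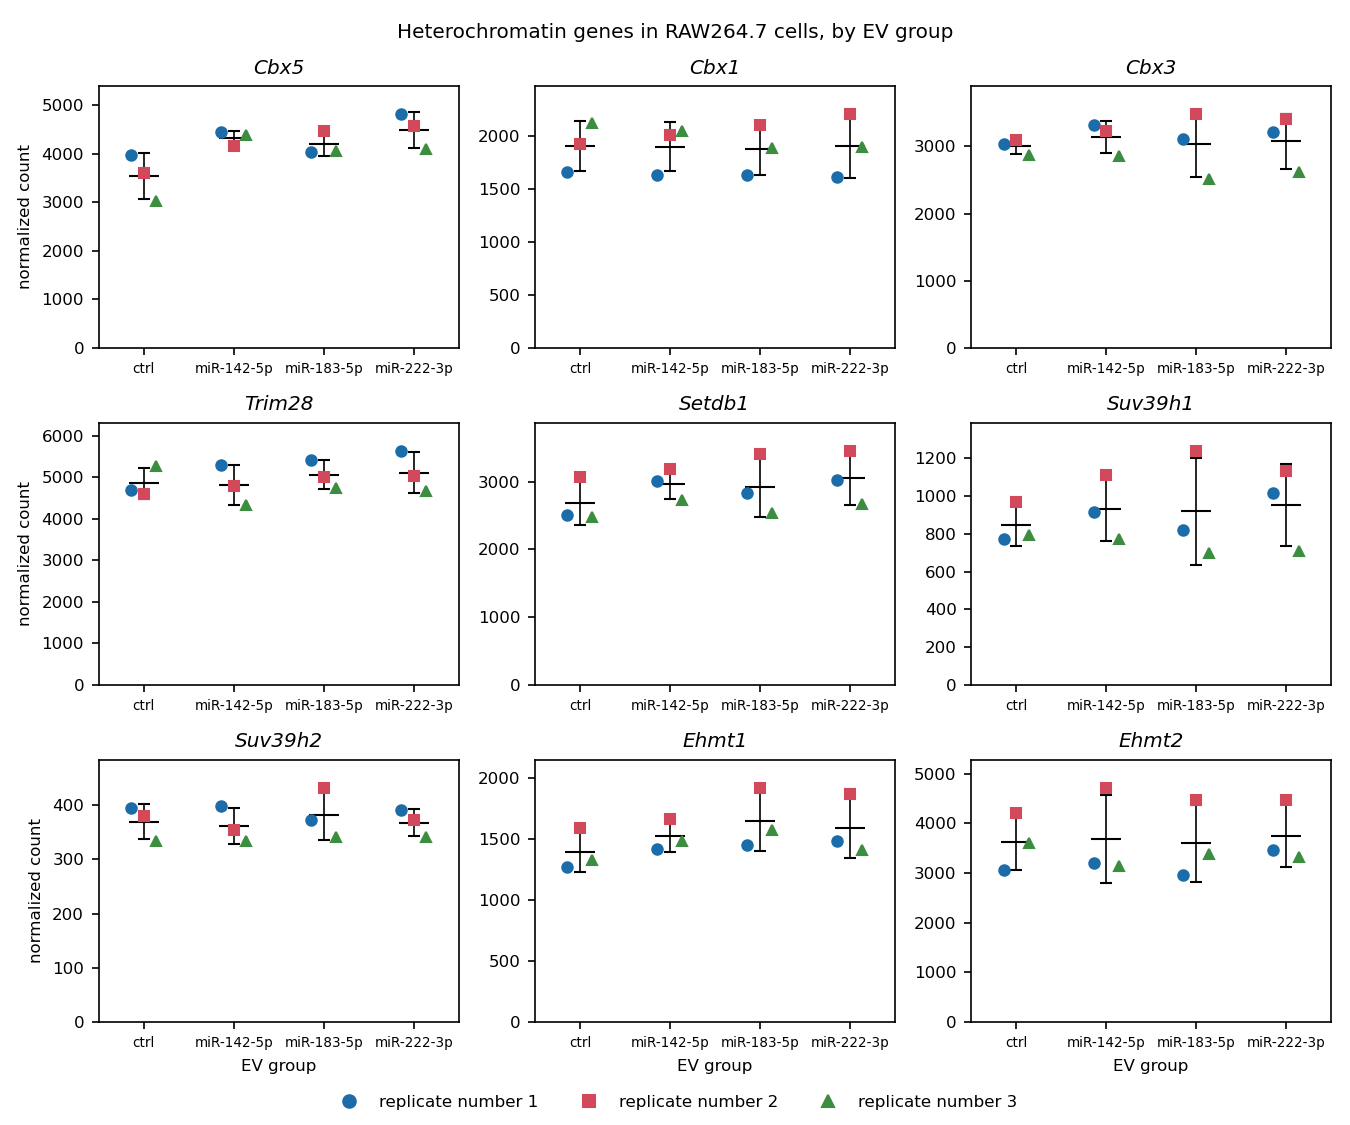
Normalized counts (y axes, from 0) of the 9 genes by EV group (x axes); each point is a library, its shape and colour give the replicate number, and the bars give mean ± SD of 3 libraries. Cbx5 in the 9 miR-EV libraries (4043 to 4816) lies above ctrl-EVs (3028 to 3972), whereas for Ehmt2 the red squares of number 2 (4203 to 4715) lie above all other libraries (2958 to 3604).

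On the TPM scale the 9 Cbx5 values with miR-EVs overlapped those with ctrl-EVs. TPM was 32.8, 27.6 and 24.3 with ctrl-EVs and 30.8 to 39.4 with miR-EVs. Replicate 2 of miR-142-5p-EVs (30.8) and of miR-183-5p-EVs (31.5) fell below ctrl-EVs replicate 1. All 3 of miR-222-3p-EVs (33.1 to 39.4) were above every ctrl-EV library, as for 2.23% of all genes tested. Set against the number-matched ctrl-EV library, Cbx5 normalized counts were higher in 9 of 9 miR-EV libraries, by 0.03 to 0.53 on the log2 scale. The mean of these differences was 0.16 for number 1, 0.29 for number 2 and 0.46 for number 3, where the ctrl-EV library was lowest.

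Transcript length moved with this difference. Cbx5-202, of 8803 bases, is longer than the main transcript of 97.5% of the genes tested. With the replicate number as a block, the pooled log2 fold change had a median of 0.16 over the 499 genes of at least 8000 bases, against -0.06 over the 3119 genes of 1000 to 2000 bases. Among the 499, 20.4% were at or above Cbx5. After a correction for gene length within the same fit, Cbx5 had a log2 fold change of 0.18 ± 0.07 (SE), down from 0.30. The part of length in the Cbx5 values was not tested beyond this correction.

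The paralogues Cbx1 and Cbx3 did not pass the test in any comparison with ctrl-EVs. Cbx1 encodes HP1β (chr11:96789127-96808640, plus strand). Its normalized counts were 1660, 1929 and 2126 with ctrl-EVs, 1609, 2208 and 1899 after miR-222-3p-EVs, 1631, 2108 and 1888 after miR-183-5p-EVs, and 1632, 2012 and 2051 after miR-142-5p-EVs. The 4 groups overlapped almost fully, and replicate 1 was lowest in each. The pooled log2 fold change was -0.01 ± 0.13 (SE), with a 95% interval of -0.27 to 0.25. With the block the interval narrowed to -0.14 to 0.11.

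Cbx3 encodes HP1γ, which is also found over transcribed genes (chr6:51470360-51483704, plus strand). Its normalized counts were 3035, 3088 and 2874 with ctrl-EVs, 3208, 3403 and 2616 after miR-222-3p-EVs, 3103, 3481 and 2511 after miR-183-5p-EVs, and 3314, 3229 and 2862 after miR-142-5p-EVs. Replicate 3 was lowest in each group, and all groups overlapped. The pooled log2 fold change was 0.04 ± 0.12 (SE), with a 95% interval of -0.19 to 0.27, and -0.10 to 0.16 with the block. Cbx3 with its miR-142-5p match was thus at 3135 ± 240 (SD, n = 3) after miR-142-5p-EVs and at 2999 ± 111 with ctrl-EVs. Cbx3 has processed pseudogenes, and Cbx3-ps6 matches it at 99.8% over 552 bases, but no pseudogene copy exceeded 1.20 TPM, so few shared reads were assigned to them.

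The balance of the HP1 mRNAs overlapped between ctrl-EVs and miR-EVs. The TPM ratio of Cbx5 to Cbx3 was 0.194 to 0.241 with ctrl-EVs and 0.237 to 0.298 with miR-EVs. The TPM ratio of Cbx5 to Cbx1 was 0.317 to 0.532 with ctrl-EVs and 0.460 to 0.666 with miR-EVs. For numbers 1 to 3 it was 0.532, 0.415 and 0.317 with ctrl-EVs. With miR-EVs it was 0.551 to 0.666, 0.460 to 0.472 and 0.474 to 0.479, higher in each number. The Cbx5 to Cbx3 ratio was likewise above the number-matched ctrl-EV library, except in miR-183-5p-EVs replicate 1 (0.240 against 0.241). Cbx5 was chosen on its own values, so these ratios are a description.

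Trim28, the corepressor that binds HP1 proteins and Setdb1 (chr7:12999114-13031035, plus strand), had 4684, 4602 and 5269 normalized counts with ctrl-EVs and 4338 to 5632 with miR-EVs. Its pooled log2 fold change was 0.04 ± 0.09 (SE), with a 95% interval of -0.14 to 0.23. The direction differed by replicate number. The mean log2 difference from the number-matched ctrl-EV library was 0.22 for number 1, 0.10 for number 2 and -0.20 for number 3.

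Setdb1, the methyltransferase that Trim28 recruits (chr3:95323525-95357202, minus strand), had 2515, 3066 and 2479 normalized counts with ctrl-EVs. It had 3027, 3453 and 2666 after miR-222-3p-EVs, 2830, 3412 and 2533 after miR-183-5p-EVs, and 3004, 3182 and 2726 after miR-142-5p-EVs. The groups overlapped, since replicate 2 was highest in each, also with ctrl-EVs. Setdb1 TPM was 38.8, 43.9 and 37.2 with ctrl-EVs, 46.3, 46.7 and 45.5 after miR-222-3p-EVs, 44.3, 44.8 and 43.1 after miR-183-5p-EVs, and 47.5, 43.9 and 45.9 after miR-142-5p-EVs. On that scale the 3 values after miR-222-3p-EVs were all higher than those with ctrl-EVs, as for 2.23% of all genes, and those of miR-142-5p-EVs did by less than the rounding of these values, as for 2.44%. Within numbers all 9 miR-EV libraries were above their ctrl-EV library, by 0.03 to 0.27 on the log2 scale. The pooled log2 fold change was 0.15 ± 0.12 (SE), with a 95% interval of -0.09 to 0.39. With the block it was 0.15 ± 0.06, unadjusted p = 0.00749 and DESeq2 adjusted p = 0.129. Setdb1 shares 99.7% of 295 bases with Gm4349, a long noncoding RNA at a mean of 2.01 TPM, so its count is uncertain by reads of that stretch.

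Ehmt1 (GLP, chr2:24789928-24919614, minus strand) had 1271, 1586 and 1327 normalized counts with ctrl-EVs. It had 1478, 1867 and 1411 after miR-222-3p-EVs, 1447, 1915 and 1569 after miR-183-5p-EVs, and 1418, 1665 and 1481 after miR-142-5p-EVs. It was again above the ctrl-EV library of its number in 9 of 9, by 0.07 to 0.27, while the groups overlapped. The pooled log2 fold change was 0.18 ± 0.13 (SE), with a 95% interval of -0.07 to 0.44. With the block it was 0.18 ± 0.06, unadjusted p = 0.00401 and DESeq2 adjusted p = 0.0997. Leaving out miR-142-5p-EVs replicate 2 from the fit with the block brought Ehmt1 to 0.20, adjusted p = 0.0372, the only setting tried that called one of the 8 against ctrl-EVs. Without the length offset the Ehmt1 value was 0.08, or 0.09 with the block. With no block, leaving out 1 ctrl-EV library moved Setdb1 over 0.10 to 0.26 and Ehmt1 over 0.12 to 0.29, the highest without replicate 2, and neither was called.

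Lying above the number-matched ctrl-EV library in 9 of 9, as Cbx5, Setdb1 and Ehmt1 were, occurred in 3.67% of all genes tested. The plot of differences within replicate number shows these 3 genes wholly above 0. Their main transcripts of 8803, 4622 and 4680 bases are the 3 longest of the 9, and the genes of 4000 to 6000 bases had a median log2 fold change of 0.06 with the block. With the length correction Setdb1 was at 0.11 and Ehmt1 at 0.14. The part of length in these values was not tested beyond this correction.

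**Figure D2:**
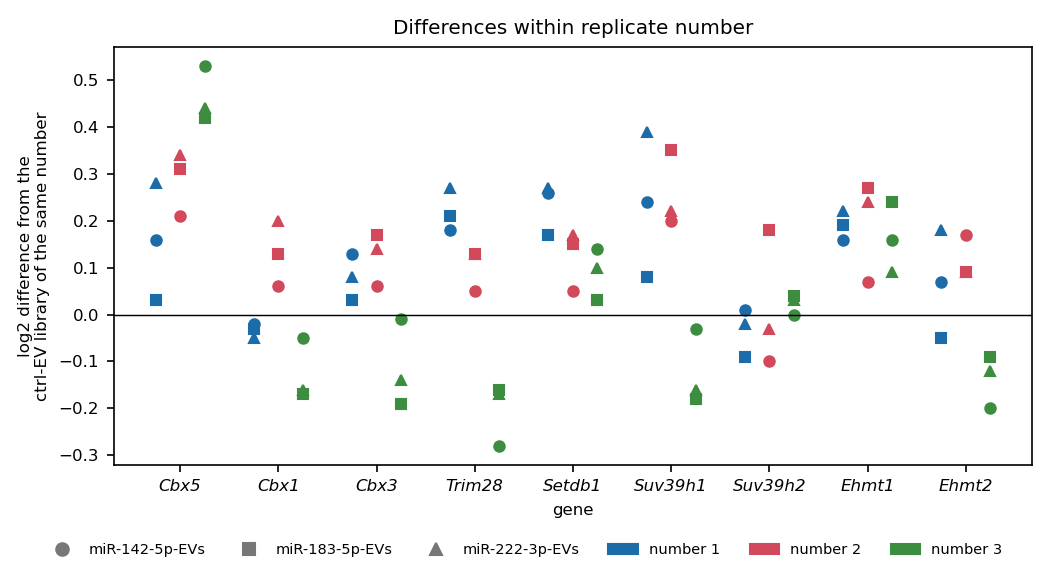
Log2 difference (y axis) of each miR-EV library from its number-matched ctrl-EV library, for the 9 genes (x axis); shapes give the EV group and colours the replicate number. Cbx5 (0.03 to 0.53), Setdb1 (0.03 to 0.27) and Ehmt1 (0.07 to 0.27) have all 9 points above 0, whereas Trim28 has its 3 number 3 points below 0.

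Ehmt2 (G9a, chr17:34898469-34914052, plus strand), the partner of Ehmt1, had 3062, 4203 and 3604 normalized counts with ctrl-EVs and 2958 to 4715 with miR-EVs. Its pooled log2 fold change was 0.02 ± 0.18 (SE), with a 95% interval of -0.32 to 0.37, and -0.12 to 0.15 with the block. The TPM ratio of Ehmt1 to Ehmt2 was 0.309 to 0.349 with ctrl-EVs and 0.297 to 0.411 with miR-EVs, and these ranges overlapped.

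The Suv39h pair gave no call either. Suv39h1 (chrX:8061171-8074760, minus strand) had 774, 971 and 792 normalized counts with ctrl-EVs and 698 to 1239 with miR-EVs. Its pooled log2 fold change was 0.15 ± 0.20 (SE), with a 95% interval of -0.24 to 0.53, the widest of the 9. Suv39h2 (chr2:3455815-3475031, minus strand), the least abundant member, had 395, 381 and 334 normalized counts with ctrl-EVs and 334 to 432 with miR-EVs. Its pooled log2 fold change was 0.0037 ± 0.11 (SE), with a 95% interval of -0.21 to 0.22.

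In all, DESeq2 called 0 of the 8 partners in any of the 3 comparisons with ctrl-EVs or in the pooled one, at an adjusted p under 0.05 over all genes. The same test called 0% of all genes in the pooled comparison and for miR-222-3p-EVs and miR-183-5p-EVs, and 0.00719% for miR-142-5p-EVs. At an unadjusted p under 0.05, 0 of 8 passed in the pooled comparison, against 1.66% of all genes, or for miR-222-3p-EVs (0.726%), miR-183-5p-EVs (0.992%) and miR-142-5p-EVs (0.525%). With the replicate number as a block, the pooled comparison called 1.60% of all genes and again 0 of 8. Setdb1 and Ehmt1, 2 of 8, then had an unadjusted p under 0.05, against 13.6% of all genes. edgeR with the block gave the same 2 at an unadjusted p under 0.05 and called 0 genes in all. For each miRNA with the block, 0.0647% of all genes were called for miR-222-3p-EVs, 0.410% after miR-183-5p-EVs and 0.0575% after miR-142-5p-EVs, and again 0 of 8. There Setdb1 and Ehmt1 had an unadjusted p under 0.05 for miR-222-3p-EVs (6.53% of all genes), Ehmt1 alone after miR-183-5p-EVs (10.1%) and 0 of 8 after miR-142-5p-EVs (5.86%). The test for any difference among the 4 groups called 0 of 8, with 0.00719% of all genes called without the block and 0.0863% with it. The 95% intervals with the block reach up to 0.31 on the log2 scale among the 8.

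**Figure D3:**
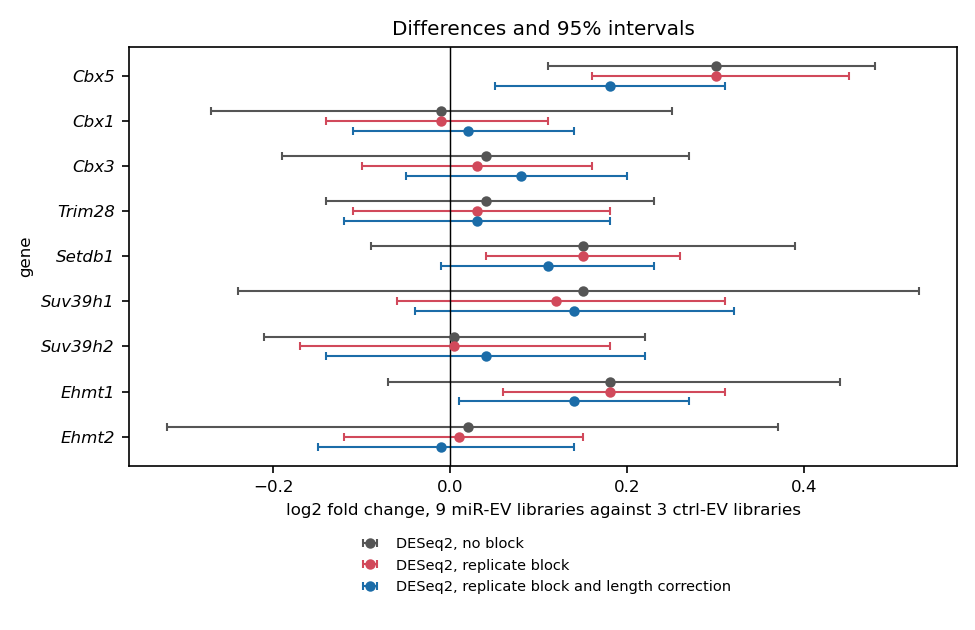
Log2 fold change (x axis) of the 9 miR-EV libraries against the 3 ctrl-EV libraries for each gene (y axis), with 95% intervals, from DESeq2 without a block (grey), with the replicate number as a block (red) and with block and gene length correction (blue). Cbx5 moves from 0.30 to 0.18 with the length correction, and Cbx1, Cbx3, Trim28, Suv39h2 and Ehmt2 stay within 0.08 of 0 in all 3 fits; Cbx5 was chosen on these values, and its interval is a description.

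The replicate number was called for most of the 8 partners, which were chosen by function. A likelihood ratio test of the number beside the group (DESeq2, adjusted over all genes) called 69.4% of all genes and 6 of the 8 partners. They were Ehmt2 (adjusted p = 2.04e-09), Suv39h1 (3.00e-06), Setdb1 (3.43e-05), Ehmt1 (6.00e-05), Cbx1 (0.000144) and Cbx3 (0.00228). Suv39h2 (adjusted p = 0.163) and Trim28 (0.245) were not called. The share of 6 in 8 is near the share of all genes. Cbx5 was chosen for a separation of the EV groups that bounds its spread over numbers, and no test of the number is given for it.

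Of the 5 methyltransferases, all but Suv39h2 had their highest mean in number 2. Ehmt2 had 4465 ± 209 normalized counts (SD, n = 4) in number 2, against 3173 ± 221 in number 1 and 3362 ± 189 in number 3. Suv39h1 had 1114 ± 110 in number 2, against 883 ± 108 and 743 ± 46.5. Setdb1 had 3278 ± 185 in number 2, against 2844 ± 236 and 2601 ± 115, and Ehmt1 had 1758 ± 158, against 1403 ± 91.8 and 1447 ± 103. Suv39h2 was at 385 ± 33.4 in number 2, against 389 ± 11.9 and 338 ± 4.53. For Setdb1, Ehmt1 and Ehmt2 all 4 libraries of number 2 lay above the other 8, as did 20.2% of all genes tested. On the TPM scale number 2 overlapped the others for Setdb1 (43.9 to 46.7 against 37.2 to 47.5) and for Ehmt1 (29.1 to 32.4 against 25.1 to 34.2). The HP1 paralogues differed otherwise. Cbx1 was low in number 1, at 1633 ± 21.0, against 2064 ± 121 and 1991 ± 116. Cbx3 was low in number 3, at 2716 ± 181, against 3165 ± 122 and 3300 ± 176. What a number stands for (a day, a batch) is not given in the sources used here. Without number 2, 2 of the 8 partners, Cbx1 and Cbx3, were called between numbers 1 and 3, beside 2865 of 13497 genes tested.

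Transcripts annotated as retained intron carried more of the TPM in number 2. This pattern was seen in the data first and has no test. The share of Setdb1 TPM in its 3 such transcripts was 32.9% to 38.5% in number 2 and 16.8% to 23.3% in numbers 1 and 3. For Ehmt1 it was 17.7% to 29.3% against 4.49% to 11.1%, for Ehmt2 21.0% to 25.8% against 8.18% to 14%, and for Cbx3 6.70% to 13.8% against 1.88% to 4.93%. Cbx1 was separated likewise at 2.64% to 4.62% against 0% to 1.92%, while Trim28 (28.8% to 35.2% against 22.9% to 29.7%) and Suv39h1 (35.4% to 47.1% against 21.4% to 39%) overlapped. Cbx5 and Suv39h2 have no such transcript listed. Among 6787 genes with a mean share of at least 1%, 32.7% were separated in this way. Over all genes the retained-intron share of TPM was 7.61% to 8.56% in number 2 and 5.51% to 6.31% otherwise. Once these transcripts were left out, the mean TPM of Setdb1 was 29.2 in number 2 and 34.8 in the others. That of Ehmt1 was 23.1 and 27.1, and that of Ehmt2 72.0 and 70.6. On the TPM scale number 2 already overlapped the others for Setdb1 and Ehmt1 with all transcripts kept. Normalized counts, on which number 2 was higher, were not recomputed without these transcripts, so the 2 scales cannot be set against each other here. The part of these transcripts in the higher counts of number 2 was not tested further.

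**Figure D4:**
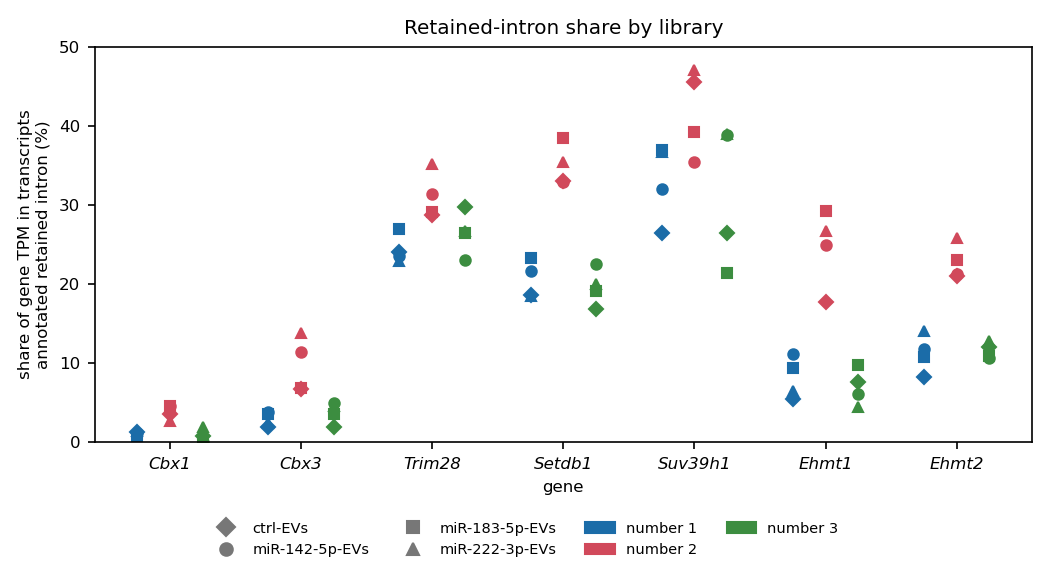
Share of a gene's TPM in transcripts annotated as retained intron (y axis, %, from 0) in the 12 libraries for the 7 genes that list such transcripts (x axis); shapes give the EV group and colours the replicate number. The 4 red points of number 2 lie above the other 8 for Cbx1, Cbx3, Setdb1 (32.9% to 38.5%), Ehmt1 and Ehmt2.

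The number 2 libraries also had a lower summed TPM of 10 proliferation genes such as Mki67, Top2a and Pcna (750 to 800, against 1006 to 1286), and of 8 macrophage markers (811 to 866, against 971 to 1077). These lists did not separate the EV groups. The endothelial markers, which mark the EV source, were lower in number 2 too, with a summed TPM of 14.9 to 17.4 against 25.3 to 34.0. The part of these lists in the differences between numbers was not tested. All 8 macrophage markers were expressed, with Cd68 at a mean of 355 TPM and Ptprc at 236. Of the endothelial sum Egfl7 made 18.4 TPM on average, while Kdr and Emcn were near 0. The fibroblast markers summed to at most 1.01, those of T and B cells to at most 1.39, and those of epithelial cells to at most 0.354 TPM.

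The share of each gene held by its main transcript was compared next. Cbx5-202 held 87.9% to 100% of Cbx5 TPM, so the Cbx5 values are nearly those of 1 transcript. Cbx1-204, annotated as a target of nonsense-mediated decay, held 63.1% to 74.1% of Cbx1 TPM, so the annotated coding transcripts held the smaller part. For the 8 partners a two-sided exact permutation test compared the share between 9 miR-EV and 3 ctrl-EV libraries, for which the smallest possible p is 0.00455. Ehmt2-202 was at 44.3% ± 4.71 (SD, n = 9) with miR-EVs and 38.9% ± 1.62 (SD, n = 3) with ctrl-EVs, with an exact p of 0.0364 and a p of 0.291 adjusted over the 8 tests. The shares also moved with the number, Ehmt2-202 being at a mean of 47.7% in number 2 and 40.6% in the others. Exchanging libraries within a number only, an exact test whose smallest possible p is 0.0156, gave Ehmt2-202 a p of 0.0312 and an adjusted p of 0.25. The other 7 had adjusted p-values of 0.691 to 0.973 in the exact test over all libraries and of 0.438 to 0.969 within numbers.

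Correlations across the 12 libraries describe which members varied together. Pearson's r of log2 normalized counts was 0.933 for Setdb1 with Suv39h1, 0.888 for Cbx3 with Suv39h1, and 0.798 for Ehmt1 with Ehmt2 (n = 12). For Cbx5 it was 0.558 with Setdb1, 0.437 with Ehmt1, 0.393 with Cbx3, 0.0467 with Ehmt2 and -0.237 with Cbx1. The points share replicate numbers and ctrl-EV libraries. The genes most like Cbx5 were Ice2 (r = 0.897), Kif24 (0.857), Vmn1r18 (0.850), Olfr1388 (0.840) and Usp45 (0.837). Cbx5 was chosen for its split between EV groups, so genes picked by likeness to it are picked in part for that split, and they are a description. Setdb1 ranked 326 of 10856 genes.

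Cbx5, Cbx3, Ehmt2 and Trim28 each have a neighbour on the other strand whose start lies within 1000 bases. For Cbx5 and Cbx3 it is an hnRNP gene. The starts of Cbx5 and Hnrnpa1 are 616 bases apart, and those of Cbx3 and Hnrnpa2b1 466 bases. Those of Ehmt2 and C2 are 204 bases apart, and those of Trim28 and Slc27a5 922 bases. C2, at a mean of 6.42 TPM, had a pooled log2 fold change of 0.13 ± 0.27 (SE), and 0.16 ± 0.25 with the block. Slc27a5, at a mean of 0.121 TPM, was not tested. Hnrnpa1, a splicing factor, had a pooled log2 fold change of 0.18 ± 0.22 (SE, DESeq2 adjusted p = 1.0), and 0.15 ± 0.10 with the block (adjusted p = 0.432). Hnrnpa2b1, a related RNA-binding protein, had 0.16 ± 0.13 (adjusted p = 1.0), and 0.16 ± 0.05 with the block (adjusted p = 0.0844). Its call depended on the setting. With the block it passed after length correction, at 0.21 (DESeq2 adjusted p = 0.0115), and where the length offset, ctrl-EVs replicate 3 or miR-142-5p-EVs replicate 2 was left out, but not after GC correction (0.13, adjusted p = 0.226), without ctrl-EVs replicate 1 (0.10, adjusted p = 0.360) or in edgeR (adjusted p = 0.290). Setdb1 (Cers2 and the pseudogene Gm42578), Suv39h2 (Dclre1c), Trim28 (Zbtb45) and Cbx1 (the pseudogene Gm11517) overlap tested genes on the opposite strand. Suv39h1, Suv39h2 and Setdb1 also overlap the untested Gm14820, Gm13184 and Gm37500 there, in that order. Whether the read assignment used strand is not given in the sources used here.

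Of 31 further HP1 and H3K9 partners, 29 were tested, and DESeq2 called 0 in the pooled comparison with or without the block. The summed TPM of the 31 was 1126 to 1254 with ctrl-EVs and 1266 to 1391 with miR-EVs, ranges that did not overlap, for which no test is given. How often sums of other gene sets separate in this way was not measured, so the separation is a description. Abundant genes weigh most in such a sum, with Lbr and Chd4 at a mean of 145 TPM and Kmt5a at 140. The median log2 fold change of the 29 with the block was 0.06, with a range of -0.16 to 0.57 and 20 of 29 above 0. It stands beside a median of 0.0011 over all genes and of 0.06 over the genes of 4000 to 6000 bases. The part of length in the values of the 29 was not tested for the list as a whole. At an unadjusted p under 0.05, 0 passed without the block. With the block 6 of 29 passed, in DESeq2 and in edgeR, beside 13.6% of all genes in DESeq2. All 6 had a log2 fold change above 0. They were Adnp, Atf7ip, Atrx, Dnmt1, Lbr and Trim24. Lbr, the inner nuclear membrane protein that tethers HP1, had 5496, 6234 and 5159 normalized counts with ctrl-EVs and a log2 fold change of 0.22 ± 0.08 (SE). Adnp, which forms a complex with HP1 and Chd4, had 199, 371 and 134 and a log2 fold change of 0.57 ± 0.20. Without ctrl-EVs replicate 2, its highest ctrl-EV library, Adnp was called at 0.96 with the block (DESeq2 adjusted p = 8.15e-05) and without it (0.0218), and without ctrl-EVs replicate 3 it was at 0.29 with the block. Lbr, with the block, was called at 0.31 without ctrl-EVs replicate 3 (DESeq2 adjusted p = 0.00857) and was at 0.12 without ctrl-EVs replicate 1 (adjusted p = 0.469). Dnmt1, the maintenance DNA methyltransferase, was at 0.20 ± 0.08, and Atrx, a chromatin remodeller, at 0.33 ± 0.14. In number 2, Adnp was below ctrl-EVs (371) after miR-183-5p-EVs (354) and miR-222-3p-EVs (245). Atrx was below ctrl-EVs in number 1 (5563 to 5912 against 5945) and in miR-142-5p-EVs replicate 2 (8118 against 8486). The other miR-EV libraries were above their number-matched ctrl-EV library for both genes. With the block, Dnmt1 was called at 0.29 without ctrl-EVs replicate 3 (DESeq2 adjusted p = 0.0469) and Atrx at 0.53 without ctrl-EVs replicate 1 (0.0284). In the other direction, Dnmt1 was at 0.10 without ctrl-EVs replicate 1 and Atrx at 0.08 without ctrl-EVs replicate 3, and with block and length correction they were at 0.14 and 0.20, none of them called.

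Of 11 enzymes that remove H3K9 methylation, 1 was called with the block, beside 1.60% of all genes, and 0 without it. Kdm3a, an H3K9 mono- and dimethyl demethylase, had 1816, 3977 and 1426 normalized counts with ctrl-EVs. It had 2415, 4969 and 1772 after miR-222-3p-EVs, 2088, 5640 and 1745 after miR-183-5p-EVs, and 2355, 4580 and 1672 after miR-142-5p-EVs. Replicate 2 was far above the others in every group. Within each number all 3 miR-EV libraries were above ctrl-EVs, as for 3.67% of all genes tested. The log2 fold change was 0.32 ± 0.07 (SE, DESeq2 adjusted p = 0.00360) with the block and 0.33 ± 0.44 (adjusted p = 1.0) without it. edgeR with the block did not call it (adjusted p = 0.134). With block and length correction the value was 0.27, DESeq2 adjusted p = 0.0489. At an unadjusted p under 0.05, 0 of the 11 passed without the block. With it 2 passed (Kdm3a and Kdm3b), in DESeq2 and in edgeR, beside 13.6% of all genes in DESeq2. The median of the 11 with the block was 0.11, beside 0.0011 over all genes. The part of length in this median was not tested.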

How the data were processed

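PolyA RNA of RAW264.7 cells was read as 12 stranded mRNA libraries. Per the labels and the study's methods, the authors assigned read pairs with Salmon to Ensembl cDNA and ncRNA. The deposited estimated counts per transcript are not normalized, and the deposited TPM values are scaled by transcript length to the same sum in each library. The labels name the build GRCh38, but all identifiers are of mouse.

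Of 118783 transcripts, 116622 matched GENCODE vM21 (GRCm38), which gives all gene positions. Gene sums of estimated counts, rounded to whole numbers, were analysed with the TPM-weighted transcript length as an offset. Libraries held 16294611 to 22974853 estimated counts, and precision figures of single libraries cover counting error only. A gene was tested where at least 3 libraries had 10 counts or more, using DESeq2 1.42.0 under R 4.3.3 (two-sided Wald test, group as the only factor; the study's methods name DESeq2 and state no test or factors). Genes were called at a Benjamini-Hochberg adjusted p under 0.05 over all genes. Pooled values set 9 miR-EV against 3 ctrl-EV libraries. Steps were tested on simulated data.

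Samples and numbers come from the titles. Libraries with the same number deviated together (18 pairs, r = 0.409 to 0.797), so the numbers pair the libraries, and the number served as a block in an alternative fit. Other alternatives were edgeR 4.0.16, TMM factors, other count filters, no length offset, corrections for gene length or GC content, the compared groups alone and leaving out libraries. Fits with the block that leave out a library or number 2, and the exact test within numbers, were added after seeing the data.

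The members and gene lists were chosen with earlier results of these data known. Named beside the members were the 5 genes whose log2(normalized count + 1) correlated best with Cbx5 where the mean normalized count was 50 or more, neighbours with a start within 1000 bases, and genes of the lists.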

Additional observations from a re-analysis of the deposited data

Results flagged for a closer look

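Of 72 sets of 4 or 9 libraries examined for a library far from the others, 1 stood out, and chance gives about 1 in 20. In replicate number 2 the transcript Cbx5-202 held 100% of Cbx5 TPM in 3 of the 4 libraries and 98.5% with miR-142-5p-EVs, so the gap to the nearest library was the whole range (ratio 1.0). A share cannot exceed 100%, so with 3 libraries at that value any lower share in 1 library gives this ratio.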

How the results depend on the processing

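Against ctrl-EVs, 0 of the 8 partners were called in any alternative other than the 1 given above. Without a block 0 genes of all were called in the pooled comparison and for miR-222-3p-EVs and miR-183-5p-EVs, 1 for miR-142-5p-EVs, and 1 for any difference among the 4 groups. The number called for miR-142-5p-EVs fell to 0 with edgeR with or without the block, the stricter filter (mean of 50) or the compared groups alone, and that for any difference fell to 0 with edgeR and the stricter filter. With the replicate block, 223 genes were called pooled, 9 for miR-222-3p-EVs, 57 for miR-183-5p-EVs, 8 for miR-142-5p-EVs and 12 for any difference. In the pooled comparison the block called Cbx5, given without a test, and Kdm3a, and it changed no other call among the members and lists. With block and GC correction the first 4 counts, in that order, were 270, 14, 86 and 13, with block and length correction 111, 5, 38 and 6, with block but without number 2 they were 529, 21, 13 and 27, and for the block with the length offset left out 153, 6, 32 and 4 (4 for any difference). Leaving out single libraries without the block gave 0 to 1 genes for miR-142-5p-EVs, 0 to 1 for miR-183-5p-EVs, 0 to 3 pooled and 0 to 2 for any difference. With the block it gave 92 (without miR-142-5p-EVs replicate 1) to 479 (without ctrl-EVs replicate 3) pooled, and 0 to 1 partners. Per miRNA it then gave 2 (without miR-222-3p-EVs replicate 3) to 93 (without ctrl-EVs replicate 3) for miR-222-3p-EVs, 6 (without miR-183-5p-EVs replicate 2) to 209 (without ctrl-EVs replicate 1) for miR-183-5p-EVs and 4 to 63 (without ctrl-EVs replicate 2) for miR-142-5p-EVs, with 0 partners each. For the replicate number, 2865 to 10298 genes and 2 to 6 partners were called, the lowest without number 2.

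The Cbx5 value for miR-183-5p-EVs moved to 0.11 with block and length correction. Small pooled values changed sign. Cbx1 went to 0.02 with block and length correction. Cbx3 went to -0.02 with block and GC correction and -0.01 without number 2. Suv39h2 went to -0.01 with TMM, -0.00064 with the stricter filter, -0.00066 with no filter, -0.05 with block and GC correction and -0.0019 without number 2. Ehmt2 went to -0.01 with block and length correction and -0.03 without number 2, and Suv39h1 for miR-183-5p-EVs to -0.05 without number 2. Leaving out single libraries gave pooled ranges of -0.10 to 0.08 for Cbx1, -0.07 to 0.05 for Suv39h2, -0.09 to 0.14 for Ehmt2, -0.03 to 0.65 for Atrx and -0.01 to 0.66 for Cbx2, and for miR-183-5p-EVs -0.0018 to 0.23 for Setdb1 and -0.15 to 0.28 for Suv39h1. The main transcript share, miR-EVs minus ctrl-EVs, then ranged over -3.62 to 0.923 percentage points for Cbx1, -3.03 to 8.71 for Cbx3, -2.45 to 1.48 for Trim28 and -6.97 to 2.69 for Suv39h1. The cause of these moves was not tested.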

Other observations

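Of 13 Polycomb genes, whose proteins write or read repressive histone marks such as H3K27 methylation, DESeq2 called 0 in the pooled comparison with or without the block. Their median log2 fold change with the block was 0.02, with a range of -0.16 to 0.24, and Cbx2 alone had an unadjusted p under 0.05 (0.24 ± 0.11, SE), also in edgeR. The replicate number was called for 10 of 13 Polycomb genes, 24 of 29 HP1 and H3K9 partners, 10 of 11 H3K9 demethylases and 10 of 10 proliferation genes, beside 69.4% of all genes. Of the proliferation genes 0 were called against ctrl-EVs, and Ccnb1 alone had an unadjusted p under 0.05 with the block (DESeq2).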
